A study of Mus musculus with 21 samples.

Results

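Translation initiation factors are the proteins that bring the ribosome to the start codon of an mRNA. eIF4E binds the cap and, with the scaffold eIF4G and the helicase eIF4A, forms the complex that recruits the small ribosomal subunit, which carries eIF3, eIF1, eIF1A, eIF5 and the initiator tRNA held by eIF2. eIF2B reloads eIF2 with GTP, the eIF2α kinases block that reloading under stress, and the 4E-BPs keep eIF4E from eIF4G. The genes considered here were the autosomal protein-coding genes whose symbols start with Eif1, Eif2, Eif3, Eif4, Eif5 or Eif6, with *Eif4enif1* and all pseudogenes left out. This gave 51 genes among 51467 in the count table.

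The data came from mouse embryonic stem cells (ESCs) of the V6.5 line, grown with serum, LIF and the 2i inhibitors. Wild-type ESCs (3 cultures) were compared with *Ddx6* KO ESCs, 2 cultures each of clone 1 and clone 2, which were made with 1 Cas9 guide and carry a deletion or an insertion in exon 7 of *Ddx6*. DDX6 is an RNA helicase that binds the mRNA decapping and deadenylation machinery. Every culture, wild type included, was labelled with 500 µM 4-thiouridine (4sU) for 30 min, and its RNA was split into a 4sU-selected library (nascent RNA) and a total RNA library (mRNA). Whether cultures of 1 genotype came from separate derivations is not given in the labels, so p values measure the spread between these cultures, and each KO clone is 1 edited line.

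Total counts ranged from 2441639 to 3570192 in 4sU libraries and from 5724179 to 7369651 in total RNA libraries. Levels below are counts scaled to the library size and by TMM (normalised CPM), except where genes are compared with each other, which uses TPM, the counts per gene length scaled to the library. The embryonic stem cell markers *Pou5f1*, *Nanog*, *Sox2*, *Esrrb*, *Zfp42* and *Klf4* lay between 256.1 and 820.1 normalised CPM in wild-type total RNA and between 336.5 and 974.7 in *Ddx6* KO. Markers of primitive endoderm, trophectoderm, fibroblasts and mesoderm reached at most 7.25 normalised CPM, and of the neural pair *Sox1* reached 20.6 while *Pax6* stayed below 1. *Cdx2*, *Col1a2* and *Col3a1* were at 0 in wild-type total RNA. Of the 10 markers tested, 6 were higher in mRNA in *Ddx6* KO and 0 lower, beside 19.5% and 31% of all tested genes. The 6 were *Nanog*, *Esrrb*, *Zfp42*, *Klf4*, the primitive endoderm marker *Gata4* and the fibroblast marker *Col1a1*. *Nanog* (0.59 on the log2 scale) lies on chromosome 6, whose tested genes had a median log2 fold change of 0.43 in mRNA. The part of these markers in the results below was not tested. *Ddx6* itself was at 335, 385 and 393 in the wild-type cultures, 57.5 and 68 in clone 1 and 23.2 and 21.6 in clone 2 in total RNA. All KO cultures lay far below the wild type. In 4sU, *Ddx6* was at 244, 246 and 272 in the wild-type cultures, 225 and 232 in clone 1 and 164 and 146 in clone 2, which leaves its nascent signal largely in place and lower in clone 2 than in clone 1.

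Of the 51 initiation factor genes, 49 reached 3 CPM of the library size in at least 3 libraries and were tested. The other two code for cap-binding proteins of the eIF4E family. *Eif4e3*, on chromosome 6, had between 0 and 9 counts in any 4sU library and between 1 and 10 in any total RNA library. *Eif4e1b*, an oocyte form of eIF4E, had at most 4 counts in 4sU and 1 in total RNA. Of the 49, 47 had at least 50 counts in every total RNA library and 47 in every 4sU library. In the smallest libraries 3 counts correspond to 1.23 CPM in 4sU and 0.524 CPM in total RNA before TMM scaling, a floor that covers counting error only.

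Promoter sequence from RefSeq (GRCm38.p6, 250 bases before to 50 after the start) was matched for 39 of the 51 genes. The ETS core CCGGAAG, searched on both strands, was found in 14 of the 39 (35.9%), beside 20.7% of 9545 tested protein-coding genes and 9.93% of all 27025 genes in the table. The E-box CACGTG was found in 10 (25.6%), beside 12.1% of tested protein-coding genes. The windows shown here come from eIF3 subunit genes, whose mRNAs were lower together in *Ddx6* KO, and from the kinase gene *Eif2ak2*, whose mRNA was higher. Each is 30 bases on the strand of the gene with the motif or its reverse complement in capitals.
*Eif3c* (chr7:126566416-126566445, minus strand): attctttggtgCTTCCGGgaagtgacgccc
*Eif3d* (chr15:77970876-77970905, minus strand): gctgtgacacaCTTCCGGttgtgtctcact
*Eif3g* (chr9:20898616-20898645, minus strand): cggccgcggcaCCGGAAGcctcttctactc
*Eif3l* (chr15:79075177-79075206, plus strand): gctgggcgggaCTTCCGGtccggccaagca
*Eif3m* (chr2:105017064-105017093, minus strand): ctgtggctgacCCGGAAGcggttgtgcgta
*Eif3f* (chr7:108934335-108934364, plus strand): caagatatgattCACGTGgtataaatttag
*Eif3k* (chr7:28981915-28981944, minus strand): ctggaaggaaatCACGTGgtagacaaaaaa
*Eif2ak2* (chr17:78882535-78882564, minus strand): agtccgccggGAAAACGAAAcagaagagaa
The first 5 hold the ETS core and *Eif3f* and *Eif3k* the E-box, all upstream of the RefSeq start. In *Eif2ak2*, which codes for the double-stranded RNA sensor PKR, the core of the interferon-stimulated response element (GAAA, any 2 bases, GAAA) begins 18 bases after that start. It occurred in 3 of the 39 genes (7.69%) and in 3.37% of tested protein-coding genes. The other two were *Eif2s1* and *Eif3a*, whose mRNAs were lower in KO. Of the ETS carriers not shown, *Eif1b*, *Eif2b4*, *Eif4ebp2* and *Eif5a* were lower in mRNA and *Eif5a2* was higher. *Eif1ad*, *Eif2ak1*, *Eif2b2* and *Eif4e2* were not called at an adjusted p below 0.05. Of the E-box carriers not shown, *Eif1b*, *Eif3a*, *Eif4a1*, *Eif4h* and *Eif5a* were lower and *Eif5a2* was higher. *Eif4e* and *Eif4g1* were not called. *Eif3e*, *Eif3h* and *Eif3i* are not among the carriers found for the ETS core or the E-box, and were also lower in mRNA (-0.39, -0.34 and -0.50). *Eif3b*, *Eif3j1* and *Eif3j2*, likewise not among the carriers, were not called. Genes without a matched promoter could not be searched. TGATGNAA, the core of the ATF4 element, was found on neither strand in the 39 windows, beside 2.62% of tested protein-coding genes. Motifs were chosen with the results known and after others had been searched, and a match describes letters in a window, not binding.

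In wild-type ESCs the initiation factor genes were abundant, with a median of 154.9 TPM in total RNA against 19.4 TPM for the 12110 protein-coding genes tested. Most abundant was *Eif4b*, which stimulates eIF4A, at 614 ± 13.7 TPM (SD, n = 3). It was followed by *Eif2s2*, the β subunit of eIF2, at 587 ± 33 TPM and *Eif4a2* at 584 ± 3.79 TPM, and neighbours in this order differed by less than the SD of *Eif2s2*. Among tested genes, the lowest levels were those of *Eif3j1* (3.61 ± 0.224 TPM), *Eif3j2* (5.12 ± 0.576 TPM) and *Eif4g3* (6.44 ± 0.33 TPM). *Eif3j1* and *Eif3j2* are near-identical copies, so reads kept only when uniquely mapped leave the level of either uncertain.

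Subunits of 1 complex were not at 1 level. In the eIF3 complex, the tested subunits other than *Eif3j1* and *Eif3j2* ran from *Eif3f* at 134 ± 9.45 TPM to *Eif3k* at 566 ± 18.8 TPM. In eIF2B, the catalytic subunit gene *Eif2b5* stood at 347 ± 2.36 TPM, while the other four lay between 37.2 TPM (*Eif2b3*) and 79.8 TPM (*Eif2b1*). The cap-binding protein gene *Eif4e* was at 40.3 ± 2.41 TPM, below its scaffold *Eif4g1* at 451 ± 12.6 TPM and below its inhibitor *Eif4ebp1* at 541 ± 7.87 TPM. The 4 kinase genes lay between 15.4 TPM (*Eif2ak4*, GCN2) and 24.8 TPM (*Eif2ak1*, HRI), so that every one was lower than every eIF2B subunit gene. These orders depend on the deposited exon lengths used for TPM. In CPM of the library size, without length scaling, *Eif3m* (147) was below *Eif3f* (169). *Eif2b2* (42.3) was then below *Eif2b3* (75.2) and below *Eif2ak1* (53.7).

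The log2 ratio of total over 4sU, which the study takes as relative mRNA stability, spread more than the levels did within some groups. Its median in wild type was 0.47 over the 49 genes and 0.32 over protein-coding genes, whose quartiles were -0.50 and 0.99. Highest were the eIF3 subunit genes *Eif3l* at 2.15 ± 0.16 (SD, n = 3) and *Eif3i* at 2.11 ± 0.06, and *Eif2a*, which can deliver the initiator tRNA independently of eIF2, at 2.04 ± 0.09. Each of them was above at least 97.4% of protein-coding genes. At the other end were *Eif1*, a start codon selection factor, at -3.86 ± 0.20, *Eif4a2* at -2.28 ± 0.01, *Eif5*, the GTPase activator of eIF2, at -1.96 ± 0.05, the eIF3 subunit gene *Eif3j1* at -1.43 ± 0.07 and *Eif4a1* at -1.29 ± 0.11. *Eif1* was above only 0.33% of protein-coding genes and *Eif4a2* above 2.91%. The paralogous helicases *Eif4a1* and *Eif4a2* thus had far more 4sU signal for their total level than *Eif4a3*, a subunit of the exon junction complex, at 0.64 ± 0.17. In 7 of the 51 genes the annotation places snoRNA genes inside the gene, with 5 in *Eif4a2*, 3 in *Eif4a1*, 2 in *Eif3a* and 1 each in *Eif5* (*Snora28*), *Eif4g1*, *Eif4g2* and *Eif2ak3*. The ratios of *Eif4g2* (-0.70 ± 0.03), *Eif2ak3* (-0.49 ± 0.14) and *Eif3a* (0.26 ± 0.13) were also below the median of the 49 genes, whereas that of *Eif4g1* (1.88 ± 0.09) was above it. *Eif1* and *Eif3j1* hold no annotated snoRNA gene, and the part of these snoRNAs in the ratios was not tested.

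**Figure D1:**
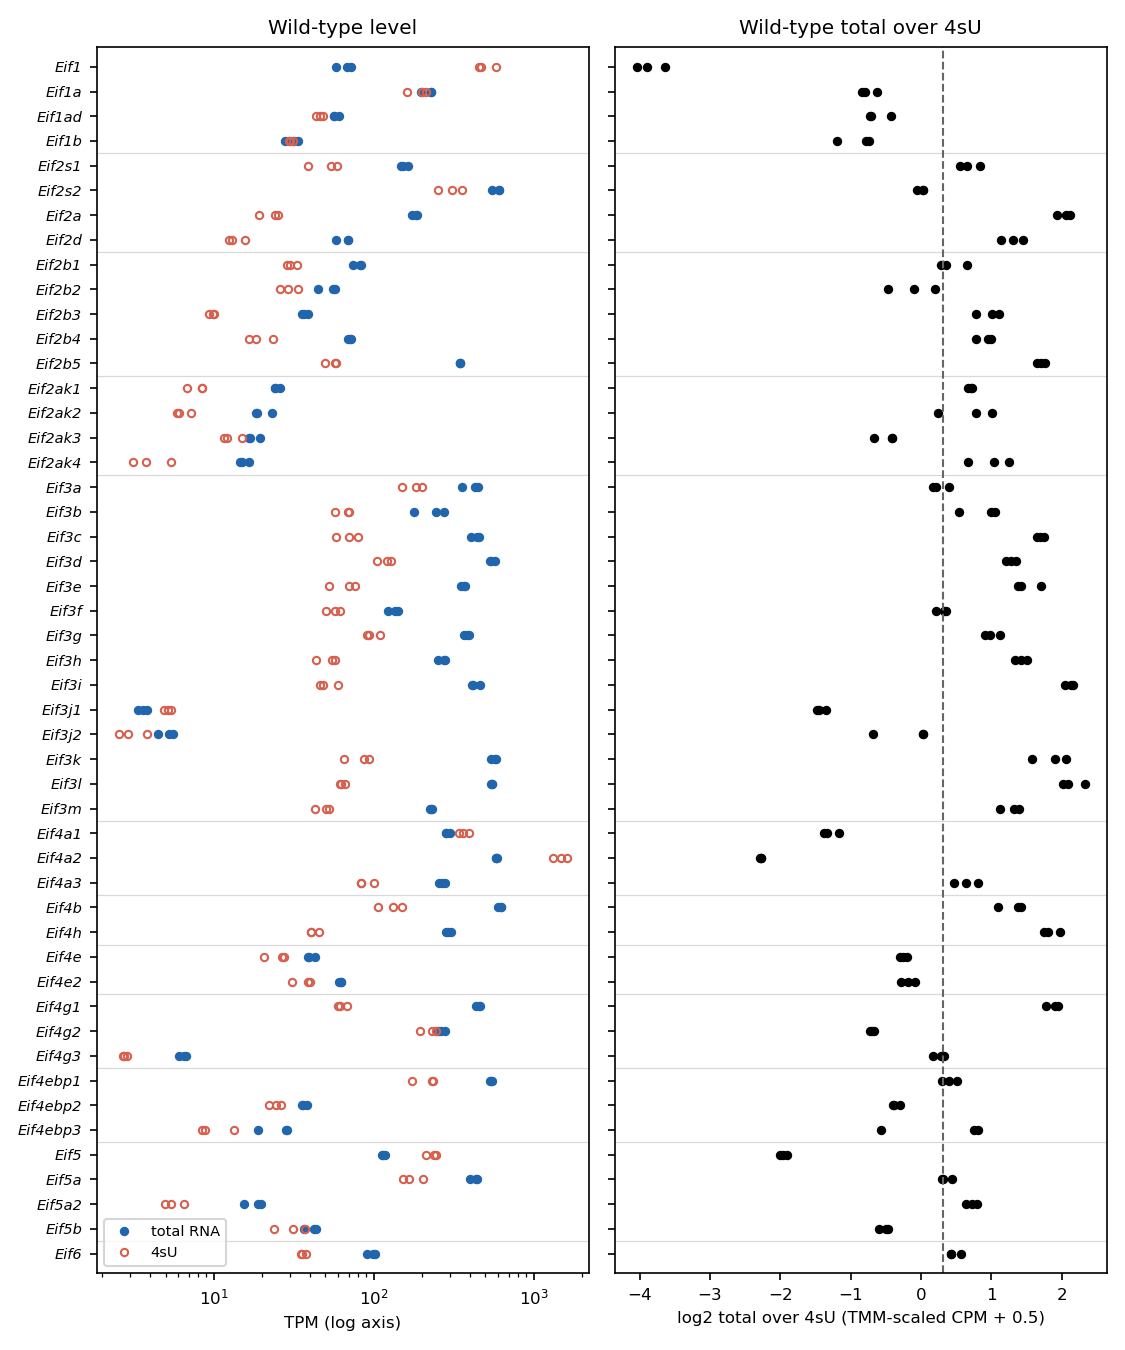
Levels of the 49 tested initiation factor genes in the 3 wild-type cultures, as TPM on a log axis in total RNA (filled) and 4sU (open) at left, and their log2 ratio of total over 4sU at right. Each point is 1 culture, grey lines separate the factor groups, and the dashed line is the median of protein-coding genes (0.32). *Eif1*, *Eif4a2* and *Eif5* lie far to the left at right, and *Eif3l*, *Eif3i* and *Eif2a* at its right edge.

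The comparison of *Ddx6* KO with wild type asked how loss of DDX6 changes transcription, mRNA level and mRNA stability. Initiation factor mRNA was mostly lower in KO. In total RNA, 28 of the 49 genes were lower, 5 were higher and 16 were not called at an adjusted p below 0.05, where 31% of all 14518 tested genes were lower and 19.5% higher. In nascent RNA, 22 were lower, 5 higher and 22 not called, beside 21% and 20.6% of all genes. In mRNA stability, 10 were lower, 4 higher and 35 not called, beside 8.58% and 3.79%. The median log2 fold change over the 49 genes was -0.17 in nascent RNA, -0.26 in mRNA and -0.13 in stability, while over all tested genes it was 0.00090, -0.099 and -0.091. Without regard to sign, the median size of change was 0.26 in nascent RNA, 0.34 in mRNA and 0.19 in stability over the 49 genes. Over all tested genes it was 0.32, 0.33 and 0.25. The part of the high level of the 49 genes in the shares called was not tested. These are differences within scaled libraries. In bulk libraries, fewer cells with an mRNA and less of it per cell cannot be told apart. Scaling by library size alone put the median of all genes at 0.21 in nascent RNA and 0.057 in mRNA, and moved the split of calls both in all genes and in the 49. In nascent RNA 14 of the 49 were then higher and 9 lower, beside 36.4% and 12.7% of all genes, and in mRNA 10 were higher and 21 lower, beside 29.5% and 19.4%. Of the 33 calls in mRNA it kept 26 and lost *Eif1b*, *Eif2b3*, *Eif4a1*, *Eif4a3*, *Eif4h*, *Eif5* and *Eif5a*, and of the 27 in nascent RNA it kept 14. TMM within each assay gave 6 higher and 7 lower in stability, beside 5.06% and 3.97%. Relative to the median of all genes, the median of the 49 genes stood between -0.17 and -0.16 in nascent RNA and in mRNA and at -0.04 in stability with these 3 scalings in edgeR and with DESeq2 and limma-voom. Over all alternatives it ranged from -0.21 to -0.11 in nascent RNA, from -0.20 to -0.15 in mRNA and from -0.04 to 0.03 in stability, where it was above 0 without wild-type culture 3 (0.01) and with either 4sU run alone (0.03 with the single-end run and 0.0028 with the re-sequencing run).

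**Figure D2:**
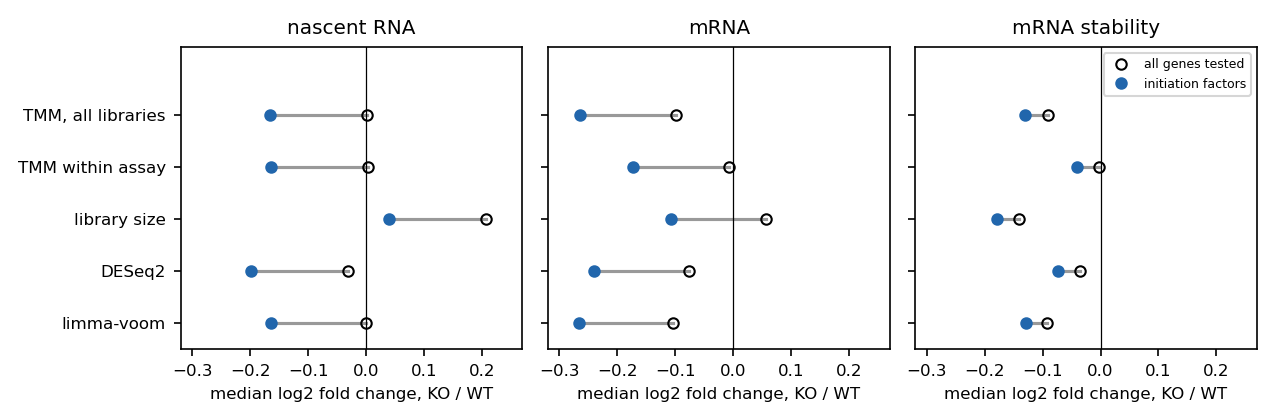
Median log2 fold change of *Ddx6* KO over wild type for all tested genes (open) and the 49 initiation factor genes (filled) under 3 scalings in edgeR and with DESeq2 and limma-voom. The scaling moves both medians together, and the members lie between 0.16 and 0.17 lower in nascent RNA and mRNA and 0.04 lower in stability.

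Few changes were large. With the added demand of an absolute log2 fold change above 1, 1 gene was called in nascent RNA (*Eif4ebp1*), 3 in mRNA (*Eif4a2*, *Eif2b5* and *Eif2s2*) and 0 in stability, beside 10.9%, 10.1% and 1.08% of all tested genes. Of the 28 genes with lower mRNA, 18 were also lower in nascent RNA and 8 were not called there. *Eif2a* and *Eif4h* were higher there, which was kept in 9 and 12 of 18 alternatives. Of the 5 with higher mRNA, *Eif4g3*, *Eif2ak2* and *Eif5b* were also higher in nascent RNA. Such joint calls were not counted over all tested genes, so whether these counts are unusual is not known. Between the clones, edgeR called 0 of 49 as different in nascent RNA, mRNA or stability (0.172%, 0.296% and 0.00689% of all tested genes), 7 had an unadjusted p below 0.05 in at least 1 of the 3, and DESeq2 and limma-voom also called 0. With 2 cultures per clone, a difference as large as -0.55 ± 0.18 (SE, clone 2 minus clone 1) in *Eif2b4* stability was not called.

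**Figure D3:**
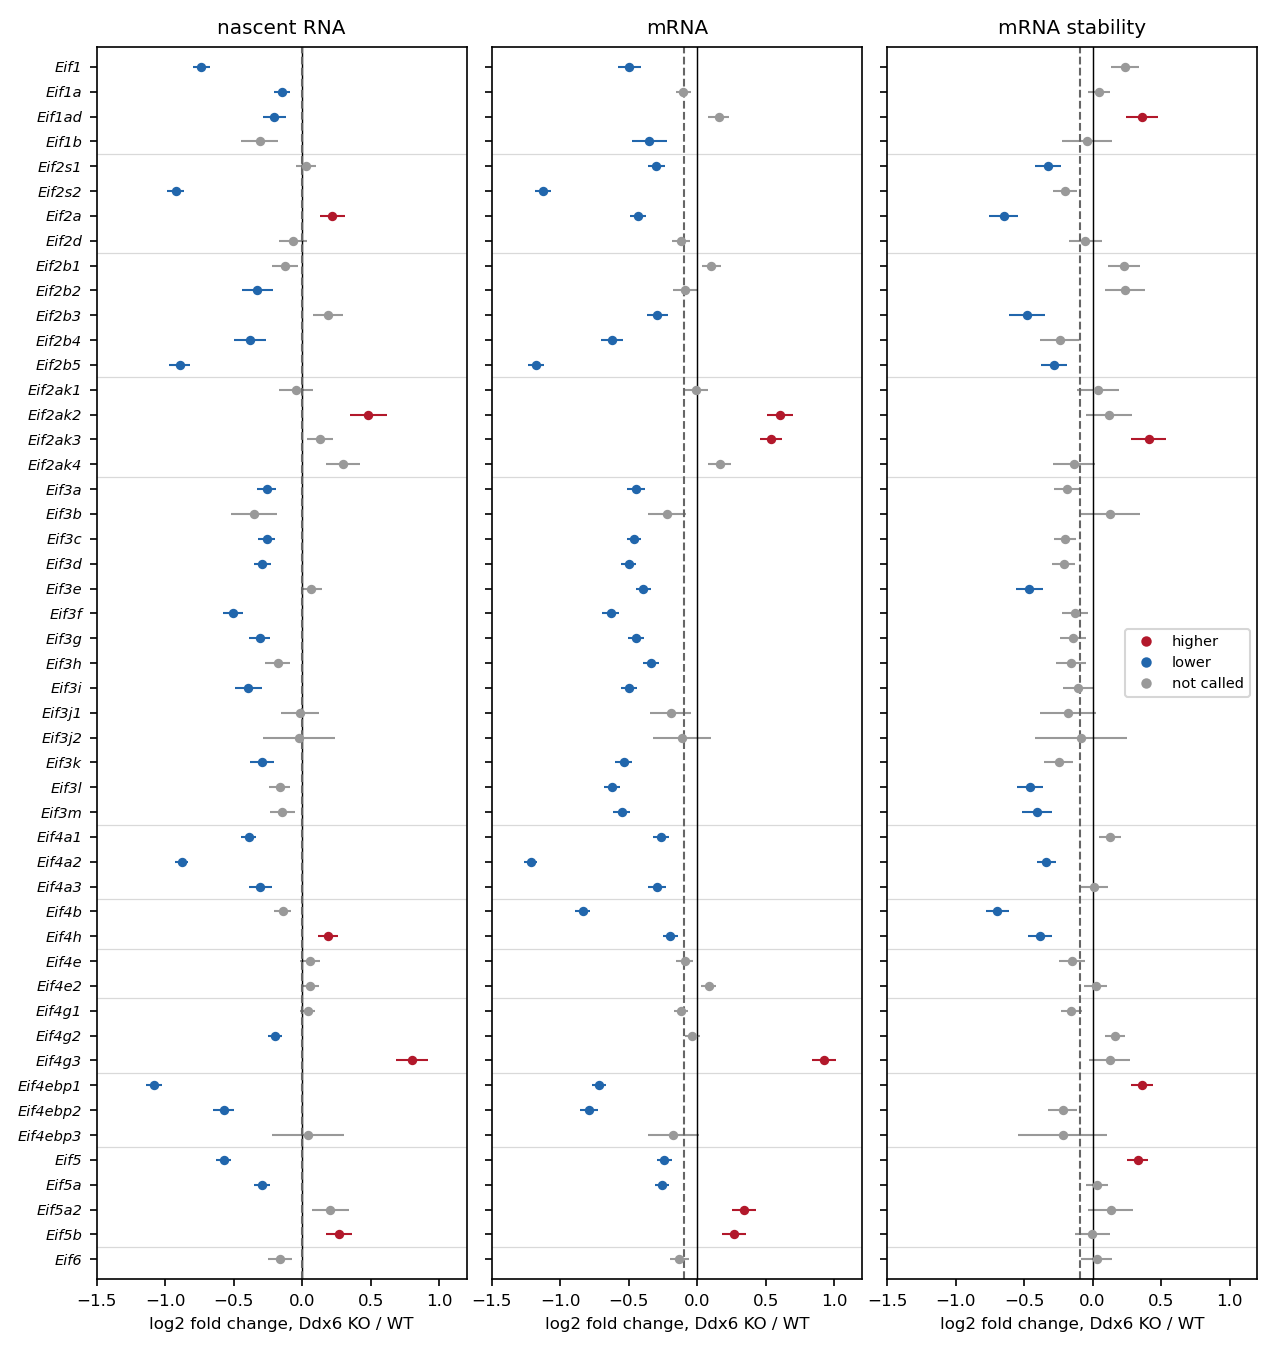
Log2 fold change of *Ddx6* KO over wild type with its SE for the 49 tested genes in nascent RNA, mRNA and mRNA stability, from edgeR. Red points were called higher, blue points lower and grey points neither, and the dashed line is the median of all tested genes. All 14 eIF3 genes lie left of 0 in mRNA, and *Eif4b* and *Eif2a* lie furthest left in stability.

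Among the eIF2 genes, *Eif2s2* fell by more than any other. In total RNA it was at 759, 830 and 823 in the wild-type cultures, 396 and 390 in clone 1 and 350 and 339 in clone 2 normalised CPM. All KO cultures lay below all wild-type cultures, and the log2 fold change was -1.12 ± 0.06 (SE), adjusted p = 2.91e-22. Nascent *Eif2s2* fell alike (-0.92 ± 0.06 (SE), adjusted p = 4.01e-18), and its stability was not called (-0.20 ± 0.09 (SE), adjusted p = 0.122). The α subunit gene *Eif2s1*, whose protein the kinases phosphorylate, was at 275, 301 and 278 in the wild-type cultures, 241 and 223 in clone 1 and 243 and 217 in clone 2 in total RNA, a smaller fall (-0.30 ± 0.06 (SE), adjusted p = 3.57e-05). Its nascent RNA was at 153, 192 and 190 in the wild-type cultures, 178 and 191 in clone 1 and 192 and 169 in clone 2 and overlapped between genotypes (0.03 ± 0.07 (SE), adjusted p = 0.794), and the decrease in stability (-0.33 ± 0.09 (SE), adjusted p = 0.0143) was kept in 12 of 19 alternative settings. *Eif2a* combined lower mRNA with higher nascent RNA. Total RNA values were 216, 228 and 230 in the wild-type cultures, 173 and 163 in clone 1 and 171 and 162 in clone 2, and the stability change was -0.65 ± 0.11 (SE), adjusted p = 1.84e-05. The nascent rise was at the edge of the threshold (0.22 ± 0.09 (SE), adjusted p = 0.0495), with 9 of 18 alternative settings keeping the call. *Eif2d*, a factor of noncanonical initiation, was called in none of the 3 comparisons.

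Of the eIF2B genes, *Eif2b5*, *Eif2b4* and *Eif2b3* were lower in mRNA and *Eif2b1* and *Eif2b2* were not called. *Eif2b5* was at 597, 599 and 590 in the wild-type cultures, 287 and 273 in clone 1 and 254 and 241 in clone 2 in total RNA, so that the subunit with the highest wild-type level had the largest fall (-1.18 ± 0.06 (SE), adjusted p = 3.75e-25). In 4sU it was at 183, 176 and 189 in the wild-type cultures, 104 and 105 in clone 1 and 98.9 and 85 in clone 2. The fall in nascent RNA was -0.90 ± 0.07 (SE), adjusted p = 1.89e-15, and a further decrease in stability of -0.28 ± 0.09 (SE) passed the test (adjusted p = 0.0389) but was kept in 6 of 19 alternative settings. *Eif2b3* lost stability without a called change in nascent RNA. Its log2 ratio of total over 4sU was 0.79, 1.01 and 1.11 in the wild-type cultures, 0.37 and 0.53 in clone 1 and 0.49 and 0.60 in clone 2, without overlap, and the stability change was -0.48 ± 0.13 (SE), adjusted p = 0.0092, kept in 15 of 19 alternatives.

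Both kinase genes called in mRNA were higher. *Eif2ak2* was at 43, 43.1 and 53.1 in the wild-type cultures, 73.5 and 70.2 in clone 1 and 71.5 and 67.6 in clone 2 in total RNA and rose in mRNA (0.60 ± 0.09 (SE), adjusted p = 1.65e-07) and in nascent RNA (0.48 ± 0.14 (SE), adjusted p = 0.00327, kept in 15 of 18 alternatives). *Eif2ak3*, the endoplasmic reticulum stress kinase PERK, was at 51.4, 43.1 and 43.5 in the wild-type cultures, 64.7 and 67.8 in clone 1 and 66.5 and 67.3 in clone 2 in total RNA, and no KO culture overlapped the wild type (0.54 ± 0.08 (SE), adjusted p = 1.35e-07). In 4sU it was at 68.7, 68.5 and 57.9 in the wild-type cultures, 69.7 and 68.4 in clone 1 and 78 and 67.8 in clone 2, where the genotypes overlapped (0.13 ± 0.10 (SE), adjusted p = 0.288), and its stability rose by 0.41 ± 0.13 (SE), adjusted p = 0.0226, kept in 14 of 19 alternatives. *Eif2ak3* lies on chromosome 6, whose 735 tested genes had a median log2 fold change of 0.53 in nascent RNA, 0.43 in mRNA and -0.13 in stability. The part of chromosome 6 in the rise of *Eif2ak3* mRNA was not tested. *Eif2ak1* and *Eif2ak4* were not called in any comparison.

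Most genes of eIF3, the largest initiation factor, fell in mRNA. In mRNA, 11 of its 14 genes were lower, 0 were higher and 3 (*Eif3b*, *Eif3j1* and *Eif3j2*) were not called. Of all tested genes 31% were lower and 19.5% higher. The median over the 14 was -0.46, against -0.099 over all tested genes, and the 11 lay between -0.34 (*Eif3h*) and -0.63 (*Eif3f*). *Eif3b* varied between cultures, from 287 to 434 normalised CPM in wild-type total RNA, and the SE of its mRNA change was 0.14. In nascent RNA 7 were lower, beside 21% of all tested genes, and the median over the 14 was -0.26, against 0.00090 over all. Library-size scaling kept only *Eif3f* of these 7. In stability 3 were lower (*Eif3e*, *Eif3l* and, in 14 of 19 alternatives, *Eif3m*), beside 8.58% of all tested genes. The median stability change over the 14 was -0.18, against -0.091 over all. The scaffold subunit gene *Eif3a* was at 1012, 1204 and 1241 in the wild-type cultures, 754 and 856 in clone 1 and 879 and 894 in clone 2 in total RNA and fell in mRNA (-0.45 ± 0.07 (SE), adjusted p = 1.43e-06) and nascent RNA (-0.26 ± 0.07 (SE), adjusted p = 0.00309). *Eif3l* was at 557, 559 and 556 in the wild-type cultures, 367 and 382 in clone 1 and 368 and 331 in clone 2. This was a fall of -0.62 ± 0.06 (SE), adjusted p = 5.89e-14, while its nascent RNA was not called (-0.17 ± 0.08 (SE), adjusted p = 0.0831). Its log2 ratio of total over 4sU went from a wild-type mean of 2.15 to 1.69 in KO, a stability change of -0.46 ± 0.10 (SE), adjusted p = 6.90e-04. *Eif3e* behaved similarly, with total RNA at 311, 303 and 288 in the wild-type cultures, 236 and 223 in clone 1 and 234 and 221 in clone 2, nascent RNA at 0.07 ± 0.08 (SE) and stability at -0.46 ± 0.10 (SE), adjusted p = 5.39e-04. For all 11 genes the fall in mRNA was called under every alternative setting apart from the fold threshold.

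In the cap-binding complex, the helicase genes fell and *Eif4e* was not called. *Eif4a2* was at 1011, 1002 and 1003 in the wild-type cultures, 447 and 431 in clone 1 and 429 and 423 in clone 2 in total RNA and at 4897, 4890 and 4859 in the wild-type cultures, 2729 and 2759 in clone 1 and 2631 and 2493 in clone 2 in 4sU. Neither set of values overlapped, and the mRNA change was the largest fall of the 49 genes (-1.22 ± 0.05 (SE), adjusted p = 7.35e-29). It was made up of nascent RNA (-0.88 ± 0.05 (SE), adjusted p = 1.10e-22) and stability (-0.34 ± 0.07 (SE), adjusted p = 4.89e-04). Its paralog *Eif4a1* fell less in mRNA (-0.26 ± 0.06 (SE), adjusted p = 6.95e-05), with total RNA at 272, 271 and 284 in the wild-type cultures, 228 and 225 in clone 1 and 230 and 235 in clone 2, and in nascent RNA by -0.39 ± 0.06 (SE), adjusted p = 4.54e-08. The fall in *Eif4a1* mRNA was not called with library-size scaling (adjusted p = 0.108). *Eif4e* was at 108, 108 and 118 in the wild-type cultures, 100 and 110 in clone 1 and 103 and 103 in clone 2 in total RNA, and its genotypes overlapped (-0.09 ± 0.06 (SE), adjusted p = 0.225). *Eif4e2*, which codes for the cap-binding repressor 4EHP, was likewise not called in any comparison.

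Among the scaffold genes, *Eif4g1* was at 1436, 1475 and 1488 in the wild-type cultures, 1359 and 1335 in clone 1 and 1376 and 1339 in clone 2 in total RNA and just missed the threshold (-0.12 ± 0.05 (SE), adjusted p = 0.0502). *Eif4g3* was the initiation factor gene with the largest rise. It was at 36.1, 33.1 and 36.1 in the wild-type cultures, 66.8 and 64.9 in clone 1 and 65 and 69.8 in clone 2 in total RNA and at 31.9, 26.4 and 29.7 in the wild-type cultures, 51.8 and 45.9 in clone 1 and 47.8 and 57 in clone 2 in 4sU, without overlap in either. The rise was 0.92 ± 0.09 (SE), adjusted p = 9.84e-14 in mRNA and 0.80 ± 0.12 (SE), adjusted p = 8.36e-08 in nascent RNA, with stability not called. At 15.0 TPM in KO it was still far below *Eif4g1* at 509 TPM. *Eif4g2* (DAP5), which lacks the eIF4E binding site, was called lower in nascent RNA alone (-0.20 ± 0.05 (SE), adjusted p = 0.00133), a change that turned sign with library-size scaling.

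The helicase cofactor gene *Eif4b* had the largest loss of stability among the tested initiation factor genes. *Eif4b* was at 1253, 1291 and 1278 in the wild-type cultures, 710 and 721 in clone 1 and 727 and 695 in clone 2 in total RNA, without overlap between genotypes. In 4sU it was at 480, 480 and 598 in the wild-type cultures, 455 and 493 in clone 1 and 500 and 437 in clone 2, where the genotypes overlapped and the change missed the threshold (-0.14 ± 0.06 (SE), adjusted p = 0.0539). The mRNA change was -0.84 ± 0.06 (SE), adjusted p = 4.75e-19 and the stability change -0.69 ± 0.08 (SE), adjusted p = 1.38e-08, called under all 19 alternative settings in which it was computed with the adjusted p alone. *Eif4h*, its homolog, lost stability too (-0.38 ± 0.09 (SE), adjusted p = 0.00238), with total RNA at 434, 417 and 446 in the wild-type cultures, 385 and 360 in clone 1 and 382 and 382 in clone 2 and nascent RNA higher in KO (0.19 ± 0.07 (SE), adjusted p = 0.0331, kept in 12 of 18 alternatives).

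**Figure D4:**
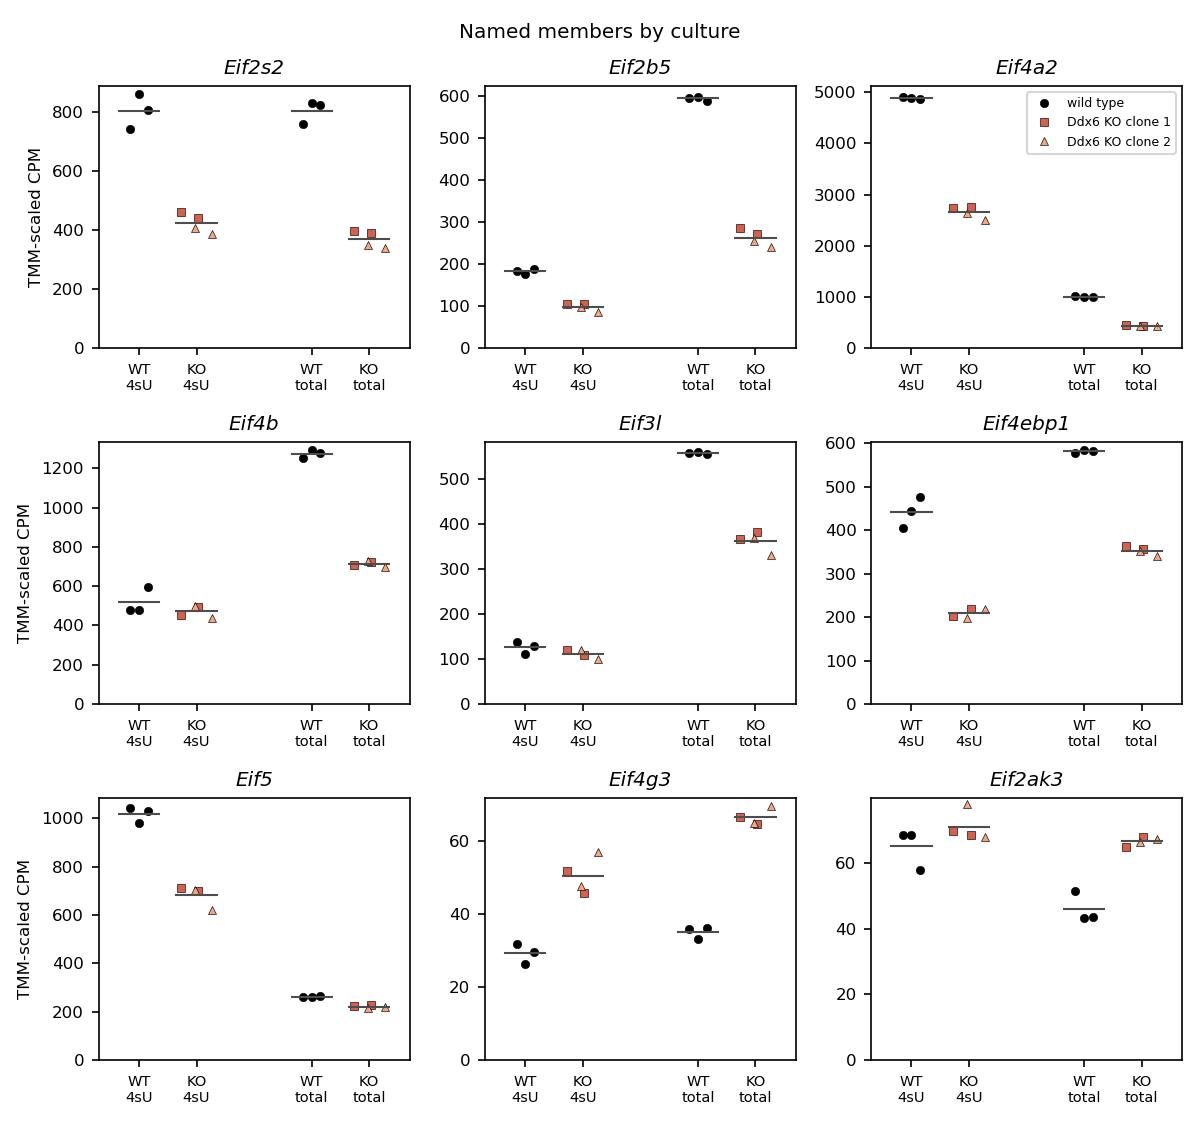
Normalised (TMM-scaled) CPM of 9 initiation factor genes in each culture in 4sU and total RNA, with bars at the group means. Black circles are wild type, squares clone 1 and triangles clone 2. *Eif4b* and *Eif3l* differ in total RNA with overlapping 4sU values, whereas *Eif2s2*, *Eif2b5* and *Eif4a2* are lower in both.

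The 4E-BP genes, which code for inhibitors of eIF4E, fell in mRNA for *Eif4ebp1* and *Eif4ebp2* and were not called for *Eif4ebp3*. *Eif4ebp1* was at 405, 444 and 476 in the wild-type cultures, 202 and 218 in clone 1 and 197 and 218 in clone 2 in 4sU, the largest nascent fall of the 49 genes (-1.08 ± 0.06 (SE), adjusted p = 1.09e-22). Its total RNA was at 578, 584 and 583 in the wild-type cultures, 363 and 358 in clone 1 and 352 and 340 in clone 2 and fell by less (-0.72 ± 0.05 (SE), adjusted p = 1.61e-17), so that its stability rose by 0.36 ± 0.08 (SE), adjusted p = 0.0012. *Eif4ebp2* was at 113, 111 and 118 in the wild-type cultures, 59.5 and 74.9 in clone 1 and 64.4 and 64.1 in clone 2 in total RNA, with changes of -0.79 ± 0.07 (SE), adjusted p = 8.87e-15 in mRNA and -0.57 ± 0.08 (SE), adjusted p = 9.71e-09 in nascent RNA.

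The genes named after eIF1, eIF5 and eIF6 were mixed. *Eif5* was at 1042, 981 and 1028 in the wild-type cultures, 711 and 697 in clone 1 and 704 and 621 in clone 2 in 4sU and at 259, 262 and 263 in the wild-type cultures, 225 and 227 in clone 1 and 214 and 218 in clone 2 in total RNA. Nascent RNA fell (-0.57 ± 0.05 (SE), adjusted p = 7.35e-14), mRNA fell less (-0.24 ± 0.05 (SE), adjusted p = 1.78e-04, not called with library-size scaling) and stability rose (0.33 ± 0.08 (SE), adjusted p = 0.00184), the same combination as in *Eif4ebp1*. *Eif1* was at 696, 728 and 640 in the wild-type cultures, 395 and 449 in clone 1 and 382 and 425 in clone 2 in 4sU and fell in nascent RNA (-0.74 ± 0.06 (SE), adjusted p = 9.25e-16) and mRNA (-0.50 ± 0.08 (SE), adjusted p = 1.43e-06). *Eif5b*, the GTPase that joins the ribosomal subunits, was at 155, 182 and 176 in the wild-type cultures, 172 and 202 in clone 1 and 207 and 241 in clone 2 in total RNA. Genotypes overlapped, and the rise in mRNA (0.26 ± 0.09 (SE), adjusted p = 0.0157) was not called without wild-type culture 3 or with clone 1 alone (adjusted p up to 0.125). The rise in *Eif5b* nascent RNA (0.27 ± 0.09 (SE), adjusted p = 0.0251) was kept in 13 of 18 alternatives. *Eif5a2*, the less abundant paralog of the elongation and termination factor gene *Eif5a*, rose in mRNA (0.34 ± 0.09 (SE), adjusted p = 0.00132) with values of 52.1, 41.6 and 52.8 in the wild-type cultures, 65 and 60.8 in clone 1 and 60.1 and 61.4 in clone 2, while *Eif5a* fell (-0.26 ± 0.05 (SE), adjusted p = 5.20e-05, also not called with library-size scaling). *Eif1ad* was more stable in KO (0.36 ± 0.11 (SE), adjusted p = 0.0266), with log2 ratios of -0.73, -0.42 and -0.71 in the wild-type cultures, -0.36 and -0.13 in clone 1 and -0.07 and -0.48 in clone 2. This call was kept in 12 of 19 alternatives. *Eif6*, which keeps the large subunit from joining early, was not called in any comparison and was at 136, 131 and 119 in the wild-type cultures, 135 and 114 in clone 1 and 117 and 104 in clone 2 in total RNA.

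Other genes of the pathway were taken from a list of 33 that the symbol rule leaves out, all of them tested. In mRNA 12 were lower and 4 higher, beside 31% and 19.5% of all tested genes. In nascent RNA 9 were lower and 7 higher, beside 21% and 20.6%, and in stability 4 were lower and 4 higher, beside 8.58% and 3.79%. Those called lower for stability were *Abce1*, the ribosome recycling factor (-0.36 ± 0.08 (SE), adjusted p = 8.09e-04), *Impact*, an inhibitor of GCN2 activation (-0.97 ± 0.24 (SE), adjusted p = 0.0222), *Gigyf2*, a partner of 4EHP (-0.27 ± 0.09 (SE), adjusted p = 0.0492), and *Mtor*, the kinase that inactivates 4E-BPs (-0.31 ± 0.11 (SE), adjusted p = 0.0476). Those called higher were *Ppp1r15b* (0.54) and *Ppp1r15a* (0.45), which direct the dephosphorylation of eIF2α, *Pabpc4*, a poly(A)-binding protein (0.38), and the helicase gene *Ddx3x* (0.33). Both eIF2α phosphatase cofactor genes thus had higher stability and lower nascent RNA in KO, at -0.43 for *Ppp1r15b* and -0.51 for *Ppp1r15a*. Neither was called in mRNA (0.12, adjusted p = 0.063 for *Ppp1r15b* and -0.06, adjusted p = 0.594 for *Ppp1r15a*). *Atf4*, the transcription factor translated when eIF2α is phosphorylated, was lower in mRNA (-0.46) and in nascent RNA (-0.53). *Impact* is an imprinted gene, and its nascent RNA was 1.17 higher on the log2 scale, while its mRNA was not called (0.20, adjusted p = 0.292). The clones differed in *Impact*. In total RNA it was at 167, 179 and 179 normalised CPM in wild type, 176 and 163 in clone 1 and 244 and 220 in clone 2. In 4sU it was at 80.2, 78 and 100 in wild type, 171 and 175 in clone 1 and 227.5 and 205 in clone 2.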

How the data were processed

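The values used are raw counts per gene deposited by the authors, with no normalization. Per the file headers and the labels, reads were trimmed with Cutadapt 1.14, mapped with STAR 2.5.3a to mm10 keeping unique reads, and counted on the reverse strand over Gencode M14 exons without rRNA genes with featureCounts 1.5.3, as reads in the single-end run and as fragments in the paired re-sequencing run of the 4sU libraries. Both runs were summed per library. The 92 spike-in rows were at 0 and were left out. The deposited exon lengths were used for TPM. Symbols came from Gencode M21 of the same build, which matched 51274 of 51559 rows.

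The 14518 genes that reached 3 CPM in 3 or more of the 14 libraries were scaled with TMM and fitted in edgeR 4.0.16 with its robust quasi-likelihood test on genotype, assay and their interaction, which is the stability change. Benjamini-Hochberg adjustment ran over all tested genes, and called means an adjusted p below 0.05. Log2 ratios used a pseudocount of 0.5 CPM. DESeq2 1.42.0, limma-voom (limma 3.58.1), other scalings, filters, runs, clones, blocks and left-out cultures were alternatives. The fit was tested on simulated counts. 4sU and total RNA of a culture came from 1 extraction, and after removal of group means they correlated with r of 0.00352 to 0.0257 over genes.

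Described with the value in each culture are up to 5 called genes with the largest rise and fall per comparison, core factors chosen by role, and the genes on chromosome 6. Members and lists were chosen with earlier results of these data known. The gene that RefSeq lists as an *Eif4a3* copy under another Gencode symbol is not among the 51.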

Additional observations from a re-analysis of the deposited data

Results flagged for a closer look

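Values in the 4 *Ddx6* KO cultures were examined for 1 culture standing apart from the other three (Dixon's test at the 95% level) in 4sU, in total RNA and in their ratio for the 26 genes described by culture. Of 78 such groups, 4 held 1, and chance gives about 1 in 20. The log2 total over 4sU of *Eif2a* was 1.22 in clone 2 culture 2 and 1.44 in each of the other three. *Eif4h* was at 360.2 normalised CPM in total RNA of clone 1 culture 2, against 381.6 to 384.7. *Eif5* was at 621.0 normalised CPM in 4sU of clone 2 culture 2, against 697.3 to 711.4. *Eif4e3*, which was not tested, was at 2.72 normalised CPM in 4sU of clone 2 culture 1, which is 9 counts, against 0 to 0.285. The calls of *Eif2a*, *Eif4h* and *Eif5* for stability were kept without the culture that stood apart.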

How the results depend on the processing

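Apart from the fold threshold, the 33 calls in mRNA were kept under all 18 alternatives for 25 genes, the 27 in nascent RNA under all 18 for 10, and the 14 in stability under all 19 for 8 (*Eif2a*, *Eif3e*, *Eif3l*, *Eif4a2*, *Eif4b*, *Eif4ebp1*, *Eif4h* and *Eif5*). The fold threshold left 1, 3 and 0 genes called in nascent RNA, mRNA and stability. Leaving out each culture gave 22 to 26 called in nascent RNA, 32 to 37 in mRNA and 10 to 14 in stability, and clone 2 alone gave 9 in stability. The count in nascent RNA was 19 with the re-sequencing run alone. Library-size scaling gave 23, and 3 of the 27 nascent calls (*Eif1a*, *Eif1ad* and *Eif4g2*) changed sign under it, with *Eif1ad* at 0.0010. With replicate number as a block 26, 34 and 14 genes were called, and with culture as a block 15 in stability. The block changed no count by over 1.5 times. Same-numbered cultures correlated with r from -0.0714 to 0.0998. The same measure gave only 0.00352 to 0.0257 for 4sU and total RNA of 1 culture, which share an extraction. It therefore cannot decide whether the numbers pair cultures. Clone 2 against clone 1 stayed at 0 under all 8 alternatives run. The causes of these shifts were not tested. For *Eif3j2* and *Eif4ebp3*, which had fewer than 50 counts in some libraries, the SE of the stability change was 0.34 and 0.32, against a median of 0.10 over the 49 genes, and changes of the size called in other genes were not detectable at this depth.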
